A study of Mus musculus with 75 samples.

Results

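The core circadian clock genes followed here in mouse medulloblastoma allografts were Arntl, Clock, Per1, Per2, Per3, Cry1, Cry2, Nr1d1, Nr1d2 and Dbp. They were chosen by symbol from the 21552 genes that the arrays named, and all 10 were measured. The 10 genes had 15 probe sets, and the probe set with the highest mean over all arrays stood for its gene. The tumours came from Ptch1+/- mice, which carry 1 inactive copy of the Sonic hedgehog (SHH) receptor gene, and were grown in nude CD1 hosts. MK4101 is an inhibitor of the SHH pathway, which drives this tumour. Tumours were taken after MK4101 or vehicle, and total RNA was measured on 75 single-channel arrays in 19 groups.

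In the single-dose schedule (QD in the labels), the 80 mpk groups had 5, 3, 4, 4 and 4 arrays at 1, 6, 12, 24 and 36 h. The 40 mpk groups had 4, 5, 3, 4 and 3 arrays at those times, and the vehicle groups had 5, 5, 4, 5 and 3. In the multiple-dose schedule (BID), the 80 mpk groups had 1 array at 24 h and 4 arrays at 36 h, and the vehicle groups had 4 and 5. The labels give neither the clock time of dosing nor the light schedule, so every time here counts hours after a dose. In the multiple-dose groups, the sample titles do not say whether that is the first or the last dose. They also do not say which arrays came from separate hosts, and p-values then measure only the spread between these samples, which may be technical.

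The clock is a feedback loop of transcription factors. CLOCK and BMAL1, the product of Arntl, bind E-box sequences together and switch on the Per, Cry, Nr1d and Dbp genes. PER and CRY proteins then hold CLOCK and BMAL1 back, the NR1D proteins (REV-ERBs) repress Arntl against activating ROR receptors, and DBP drives genes with D-box sequences. In tissues with a running clock, Arntl and Dbp therefore peak at opposite times of day. Per1 also answers to hormones and other outside signals.

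Promoter sequences were compared first, because the E-box letters are the link between the activators and the genes they control. RefSeq sequence (GRCm38.p6) was at hand for 9 of the 10 genes, with 13 promoters among them, and Per2 was not among them. The 250 bases before each gene's start were searched on both strands. Members are counted as genes with a match in any of their promoters. The percentages are of single promoters, so the measures are not like for like. The E-box CACGTG stood in promoters of 2 of the 9 genes, Per1 and Cry1, against 6.021% of all 32851 promoters. The related E'-box CACGTT, which reads AACGTG on the other strand, stood in those of 3 genes, Cry1, Cry2 and Nr1d1, against 3.848% of all promoters. The D-box (TTATGTAA or TTACGTAA) stood only in the Per3 promoter among the 9 genes, at 205 and 158 bases before the start, against 0.931% of all promoters. The RORE, to which ROR and NR1D receptors bind, the CRE TGACGTCA and the GLI site GACCACCCA, the letters bound by the SHH pathway's own factors, were found in none of these 13 windows, against 0.35%, 1.546% and 0.225% of all promoters. Shorter forms, which are also part of the full RORE and CRE, were more frequent. The core AGGTCA of ROR sites stood in promoters of 3 genes, Clock, Per1 and Nr1d2, against 14.024% of all promoters, and the core TGACG of the CRE in those of Per1, Cry1 and Cry2, against 17.765%. A match describes letters and is not a measured binding site.

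The 4 promoters with E-box letters are shown 5′ to 3′ on the gene's strand, with the E-box or E'-box in capitals. They lie at chr11:69098699-69098948 on the plus strand for Per1, and on the minus strand at chr10:85185055-85185304 for Cry1, chr2:92434070-92434319 for Cry2 and chr11:98775378-98775627 for Nr1d1. The letters begin 166 bases before the start in Per1, 60 and 79 in Cry1, 166 in Cry2 and 28 in Nr1d1.
Per1: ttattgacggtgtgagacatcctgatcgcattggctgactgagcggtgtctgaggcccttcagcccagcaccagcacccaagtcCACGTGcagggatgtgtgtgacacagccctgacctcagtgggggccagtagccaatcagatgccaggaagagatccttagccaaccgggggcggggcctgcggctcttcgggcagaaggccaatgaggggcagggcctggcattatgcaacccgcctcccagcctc
Cry1: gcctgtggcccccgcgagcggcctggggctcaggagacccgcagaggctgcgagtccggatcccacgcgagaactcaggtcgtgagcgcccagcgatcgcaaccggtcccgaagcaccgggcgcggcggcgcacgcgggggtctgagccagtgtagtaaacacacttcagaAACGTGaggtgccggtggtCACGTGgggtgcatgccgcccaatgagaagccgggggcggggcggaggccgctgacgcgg
Cry2: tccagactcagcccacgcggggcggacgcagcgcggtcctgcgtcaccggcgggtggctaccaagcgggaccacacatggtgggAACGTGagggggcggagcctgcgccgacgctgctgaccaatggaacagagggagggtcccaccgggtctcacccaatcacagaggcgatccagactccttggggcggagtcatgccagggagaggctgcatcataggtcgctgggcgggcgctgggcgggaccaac
Nr1d1: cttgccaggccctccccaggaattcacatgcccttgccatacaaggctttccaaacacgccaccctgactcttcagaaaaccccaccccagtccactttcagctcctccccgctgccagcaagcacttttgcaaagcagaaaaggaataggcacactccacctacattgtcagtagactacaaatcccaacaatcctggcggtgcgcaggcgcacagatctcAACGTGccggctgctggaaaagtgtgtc

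All values below are the deposited intensities, scaled so that each array averages 1. Differences are on the log2 scale, and adjusted p-values come from limma over all 21552 genes, with 0.05 as the threshold for a call. The tumour label was checked against granule neuron progenitor markers: Zic1, Atoh1, Meis1, Mycn and Barhl1 averaged 33.2, 20.5, 9.61, 6.95 and 3.57, while the liver marker Alb averaged 0.0381. Pax6 and Zic2, also on the progenitor list, were dimmer, at 0.294 and 0.171. Gli1, the standard readout of the SHH pathway, checked the treatment labels: 12 h after dosing it was 0.0959 to 0.149 at 80 mpk and 0.189 to 0.252 at 40 mpk, against 1.95 to 3.62 on all vehicle arrays. It was back at 2.30 to 3.19 at 36 h after a single 80 mpk dose, but was 0.190 to 0.632 at 36 h under multiple doses. In 24 of the 75 arrays the mean log2 level of 7 skeletal muscle genes was above 0, and these arrays are called muscle-rich here. In such bulk samples, fewer cells of a type and less RNA per cell cannot be told apart.

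The first question was whether the clock genes moved with time in vehicle-treated tumours. Some did. Over the 5 single-dose vehicle times, 6 of the 10 genes were called, against 6.28% of all genes: Dbp, Nr1d1, Cry2, Clock, Per2 and Per1. The group means of Nr1d1 spanned 1.12 on the log2 scale (adjusted p = 0.00204) and those of Dbp 0.92 (adjusted p = 0.00194). The spans of the other called genes were smaller, at 0.38 for Cry2 (adjusted p = 0.00969), 0.32 for Clock (adjusted p = 0.0125), 0.48 for Per2 (adjusted p = 0.0399) and 0.51 for Per1 (adjusted p = 0.0435). Arntl spanned 0.41 and missed the threshold (adjusted p = 0.0740), and Nr1d2, Cry1 and Per3 spanned 0.24, 0.19 and 0.15. Without the muscle-rich arrays Nr1d1, Cry2 and Clock were still called, and Dbp, Per2 and Per1 were not (adjusted p = 0.0537, 0.0701 and 0.0931). The Per1 and Per2 calls were also lost when any 1 of 12 and of 10 of the 22 arrays was left out, and Per1 then spanned as little as 0.33 (adjusted p = 0.279, without the third replicate at 12 h). The Clock call was lost without the first at 36 h (adjusted p = 0.0644), and those of Dbp, Nr1d1 and Cry2 held without each single array. Of 20 measured genes on a wider clock list, only Bhlhe40, a repressor that competes for E-boxes, was called (adjusted p = 0.0486).

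Dbp, the output gene of the loop, was highest at 12 h. Its values at 1 h were 0.220, 0.169, 0.203, 0.201 and 0.227, at 6 h 0.355, 0.249, 0.207, 0.267 and 0.228, and at 12 h 0.455, 0.244, 0.505 and 0.332. At 24 h they were 0.200, 0.177, 0.212, 0.188 and 0.199, and at 36 h 0.193, 0.220 and 0.196. Every 12 h array thus lay above every 24 h and every 36 h array, and the arrays at 12 h were also the most scattered. The 24 h level was lower than the 12 h level by 1.90-fold, a log2 difference of -0.92 ± 0.17 (SE, adjusted p = 0.00204).

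Nr1d1, which encodes the repressor REV-ERBα, was also highest at 12 h. It read 0.316, 0.268, 0.228, 0.204 and 0.216 at 1 h, 0.368, 0.335, 0.272, 0.304 and 0.393 at 6 h and 0.410, 0.269, 0.495 and 0.364 at 12 h. It then read 0.164, 0.238, 0.166, 0.174 and 0.238 at 24 h and 0.196, 0.171 and 0.155 at 36 h. The 12 h arrays again did not overlap those of 24 h or 36 h, and the 24 h level was lower than the 12 h level by 1.94-fold (log2 -0.96 ± 0.21, SE, adjusted p = 0.0075). Its paralogue Nr1d2 ranged between 2.98 and 4.83 on vehicle arrays over the 5 times and was not called.

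Arntl, the positive arm, was higher at 24 h than at 12 h by the probe set used here. Its vehicle values were 0.342, 0.270, 0.333, 0.289 and 0.281 at 24 h and 0.195, 0.284, 0.203 and 0.238 at 12 h, the lowest group. The 2 groups overlapped through 1 array at 12 h, and the 24 h level was higher by 0.41 ± 0.12 on the log2 scale (SE, adjusted p = 0.0341). The second Arntl probe set differed by -0.05 between these times and was not called (adjusted p = 0.859). Clock, its partner, read 3.07, 2.82 and 2.84 at 36 h, its highest group, and 2.20, 2.34, 2.45, 2.49 and 2.23 at 6 h, its lowest. Between 24 and 12 h that Clock probe set differed by 0.02, while another was lower at 24 h (log2 -0.43, adjusted p = 0.0431). The repressors Per1, Per2 and Cry2 were lower at 24 h, as Dbp was. Per2 read 0.363, 0.414, 0.414, 0.366 and 0.433 at 24 h, against 0.462, 0.444, 0.669 and 0.569 at 12 h, without overlap (log2 -0.41 ± 0.12, adjusted p = 0.0320), while its second probe set differed by 0.02 (adjusted p = 0.936). Cry2 read 0.660, 0.733, 0.820, 0.692 and 0.755 at 24 h, against 0.962, 0.826, 0.917 and 1.10 at 12 h, also without overlap (log2 -0.37 ± 0.09, adjusted p = 0.0164). Per1 read 0.512, 0.496, 0.506, 0.474 and 0.612 at 24 h and 0.719, 0.580, 1.08 and 0.659 at 12 h, with 1 array of each group in the other's range (log2 -0.51 ± 0.14, adjusted p = 0.0215).

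**Figure D1:**
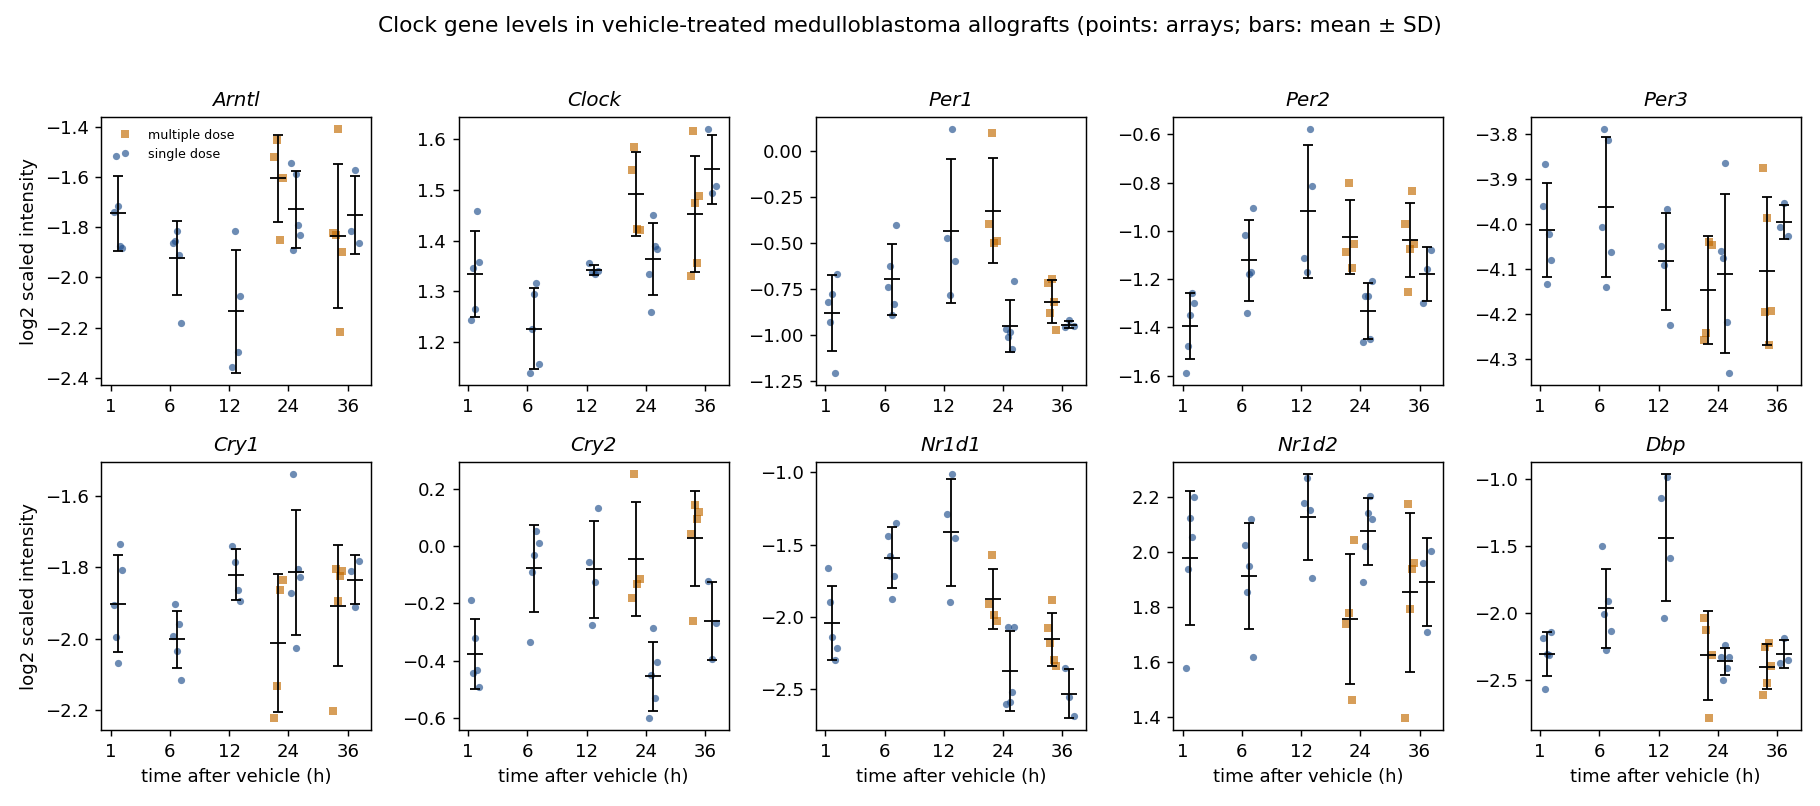
Log2 scaled intensity of the 10 clock genes on vehicle arrays by hours after vehicle, with multiple-dose arrays (squares) and single-dose arrays (circles) as points and bars for the mean ± SD. Dbp and Nr1d1 are highest at 12 h, where every array lies above all single-dose 24 h arrays, and Arntl is lowest there.

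In all, 6 of the 10 genes were called between 24 h and 12 h, against 6.38% of all genes, with Arntl higher at 24 h (2.24% of all genes) and the other 5 lower (4.14%). The groups did not overlap for 4 of the 10 genes (Per2, Cry2, Nr1d1 and Dbp), against 12% of all genes. Other clock genes lower at 24 h than at 12 h were Rora, an activator of Arntl (log2 -0.69), Nfil3, a repressor at D-boxes (-0.56), and Bhlhe40 (-0.59). Of the 6 calls, that of Dbp alone held without each of the 9 arrays in turn. The largest losses came with the third replicate at 12 h, the highest of its group for Per1, Per2, Nr1d1 and Dbp. Without it Dbp was still called (adjusted p = 0.0407), and Per1, Per2, Arntl, Cry2 and Nr1d1 gave adjusted p-values of 0.196, 0.206, 0.153, 0.0705 and 0.0744. Without the fourth replicate at 12 h, Arntl, Per1, Per2 and Cry2 were not called (adjusted p = 0.0913, 0.0566, 0.131 and 0.108). Without the fourth at 24 h, Arntl, Per1 and Per2 were not (0.0639, 0.0622 and 0.0862). The Arntl call was also lost without the first replicate at 12 h, the first at 24 h or the third at 24 h (0.105, 0.0774 and 0.0764), and that of Per2 without the first at 24 h (0.0660).

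The summed markers of fat did not overlap between these times. The 5 adipocyte markers, none of them called and none at 0, summed to 1.73 to 3.77 at 24 h and 5.22 to 16.3 at 12 h, and their part in the result was not tested. The 6 fibroblast markers summed to 47.8 to 102 at 24 h and 71.3 to 129.6 at 12 h, and none was called. The 7 muscle markers summed to 0.968 to 31.9 at 24 h and 0.933 to 169.6 at 12 h. Leaving out the muscle-rich arrays left 4 arrays at 24 h and 3 at 12 h. The 24 h level of Dbp was then still lower by a log2 difference of -0.83 and that of Nr1d1 by -0.99, and both were called (adjusted p = 0.0232 and 0.0123).

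The remaining steps in time showed little. No member was called between 6 and 1 h, between 12 and 6 h or between 36 and 24 h, against 0.213%, 0.00464% and 0% of all genes, and 5, 2 and 1 members had an unadjusted limma p under 0.05. The 24 h and 1 h arrays, and the 36 h and 12 h arrays, lie about a day apart. At 24 h against 1 h, none of the 10 genes was called, against 0.00464% of all genes. None of them had an unadjusted limma p under 0.05, against 1699 of all genes. The difference was -0.06 for Dbp (95% interval -0.37 to 0.26), 0.02 for Arntl (-0.21 to 0.24) and -0.33 for Nr1d1 (-0.72 to 0.06). Nr1d1 lay lower at 36 h by 1.12 on the log2 scale (interval -1.58 to -0.65, adjusted p = 0.0614) and Dbp by 0.87 (interval -1.25 to -0.49, adjusted p = 0.0714), and neither interval held 0. None of the 10 genes passed the adjusted threshold there, and 0% of all genes did, while 5 members and 2998 genes had an unadjusted p under 0.05. The groups did not overlap for 4 members, against 10.6% of all genes.

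A cosine curve with a 24 h period, fitted to the 22 single-dose vehicle arrays, was called for Cry2 alone (amplitude 0.27 on the log2 scale, fitted peak 8.15 h after dosing, adjusted p = 0.0367), against 1.94% of all genes. That call was lost when any 1 of 11 arrays was left out (adjusted p = 0.0506 to 0.0954). The number of members called was 0 after a second quantile normalization and without muscle-rich arrays, and 5 without the 36 h arrays. Per2 peaked at 10.6 h with an amplitude of 0.18 (adjusted p = 0.0647), Dbp at 10.4 h with 0.30 (adjusted p = 0.115) and Nr1d1 at 7.34 h with 0.56 (adjusted p = 0.140). With samples at 5 times, of which 1 and 24 h, and 12 and 36 h, fall on nearly the same phases, peak times are descriptions.

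Across the 22 single-dose vehicle arrays, Arntl ran against some of the genes it activates. Pearson's r was -0.74 with Dbp, -0.72 with Per1, -0.72 with Per2, -0.72 with Nr1d1 and -0.59 with Cry2. With the others it was weak, at -0.19 for Cry1, -0.16 for Nr1d2 and 0.17 for Per3. Some of the activated genes ran together, with r of 0.79 for Per1 and Nr1d1, 0.78 for Per1 and Dbp and 0.75 for Nr1d1 and Dbp. Pairs with Per3, Nr1d2 or Cry1 did not, such as Per1 and Per3 (0.01), Per1 and Nr1d2 (0.01) and Cry1 and Cry2 (-0.33). These points share times, tumour samples and array scaling. When each group's mean was taken out, over the 74 arrays of groups with replicates, the Arntl and Dbp values were unrelated (r = -0.01). Arntl then had r of -0.35 with Per2, -0.22 with Per1, -0.15 with Cry2 and 0.15 with Nr1d1. Per1 and Per2 (0.54), Per1 and Nr1d1 (0.49) and Nr1d1 and Dbp (0.44) still varied together, and Per1 and Dbp less so (0.20).

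**Figure D2:**
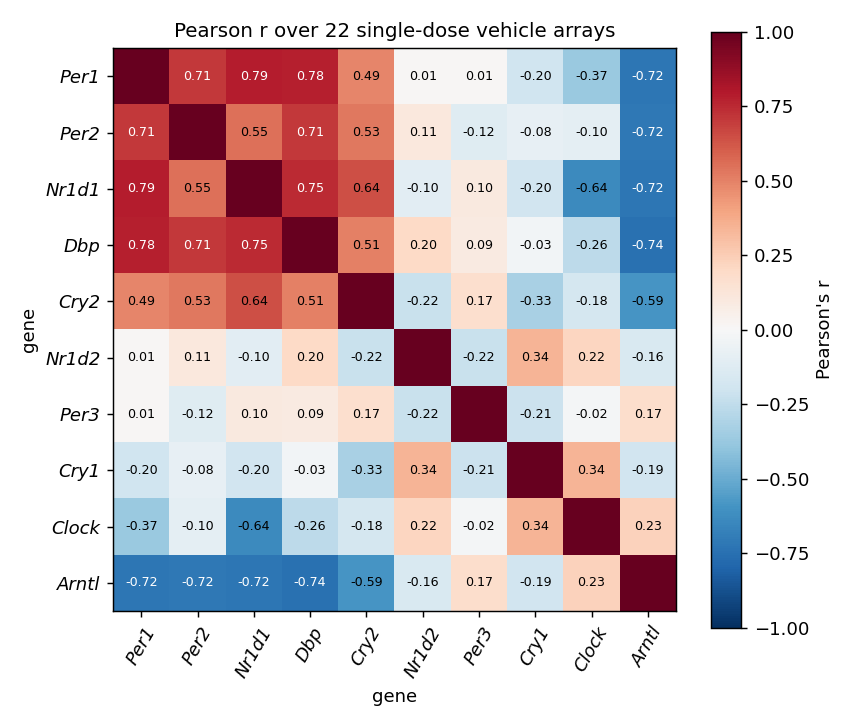
Pearson's r between pairs of clock genes on log2 values over the 22 single-dose vehicle arrays, with red for positive and blue for negative values. Arntl has r of -0.59 to -0.74 with Cry2, Per1, Per2, Nr1d1 and Dbp, and of -0.19 to 0.17 with Cry1, Nr1d2 and Per3.

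Vehicle arrays were next compared between schedules. At 24 h, 2 of the 10 genes were called, Per1 and Cry2, against 5.51% of all genes, both higher under the multiple-dose schedule (3.41% of all genes). The groups did not overlap for 4 of the 10, against 13.6% of all genes. Per1 read 0.758, 1.07, 0.705 and 0.711 on the multiple-dose arrays and 0.512, 0.496, 0.506, 0.474 and 0.612 on the single-dose arrays, with all of the multiple-dose arrays higher (1.54-fold, log2 0.62 ± 0.14, adjusted p = 0.00963). Cry2 read 0.883, 1.19, 0.912 and 0.924 against 0.660, 0.733, 0.820, 0.692 and 0.755, again without overlap (1.33-fold, log2 0.41 ± 0.09, adjusted p = 0.0114). Both calls were lost without the second multiple-dose vehicle replicate (adjusted p = 0.0773 and 0.0848), the highest array for both genes. The 5 adipocyte markers summed to 3.50 to 57.7 on the multiple-dose arrays and 1.73 to 3.77 on the single-dose arrays with none called or at 0, and 2 of 5 endothelial markers were higher, with sums of 1.93 to 5.65 and 1.17 to 1.89. Their part in the result was not tested.

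Nr1d1 (log2 0.50, adjusted p = 0.128), Per2 (0.31, adjusted p = 0.108) and Nr1d2 (-0.32, adjusted p = 0.0786) missed the threshold in that comparison. Dbp differed by 0.05, with an interval of -0.29 to 0.38. From the wider list, Nfil3 (0.67) and Fbxw11, a subunit of a ubiquitin ligase that marks PER proteins for breakdown (0.21), were higher and its relative Btrc lower (-0.28). At 36 h no member was called between the schedules, against 0.0278% of all genes, and 1 member and 2619 genes had an unadjusted limma p under 0.05. None was called between 36 and 24 h within the multiple-dose schedule either, where 0.0974% of all genes were.

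The second question was what MK4101 did to these genes at each time. The comparisons at a given time share their vehicle arrays across doses, so their values are given side by side and not as repeats of each other. At 1 h no member was called at 80 or 40 mpk, against 0% of all genes at either dose, and 1 and 0 members had an unadjusted limma p under 0.05. At 6 h Gli1 had already fallen by 4.0 on the log2 scale at 80 mpk and by 3.22 at 40 mpk. Again no member was called, against 1.75% and 1.68% of all genes. An unadjusted limma p under 0.05 was found for 2 and 0 members, against 2303 and 1835 genes. Of the wider list, Hlf, a relative of Dbp, was lower at 6 h at both doses (log2 -0.80 at 80 mpk and -0.88 at 40 mpk).

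At 12 h Clock was the only member called at each dose, against 9.84% of all genes at 80 mpk and 6.5% at 40 mpk. It read 2.15, 2.19, 2.04 and 2.43 at 80 mpk and 2.26, 2.17 and 2.18 at 40 mpk, against 2.56, 2.53, 2.52 and 2.53 on vehicle, with every treated array lower. The differences were -0.20 ± 0.06 at 80 mpk (adjusted p = 0.0159) and -0.20 at 40 mpk (adjusted p = 0.0424), and the call at 40 mpk was lost when any 1 of its 7 arrays was left out. That at 80 mpk was lost without the first or without the third 80 mpk replicate (adjusted p = 0.0512 and 0.101), and neither was made when only the groups compared were fitted. The 2 other Clock probe sets read lower at 80 mpk as well, at -0.52 (adjusted p = 0.00945) and -0.28 (adjusted p = 0.0377) on the log2 scale. Arntl (0.35, adjusted p = 0.0663) and Per3 (0.29, adjusted p = 0.0797) missed the threshold at 80 mpk. The other members lay between -0.36 (Nr1d1) and 0.24 (Dbp) at 80 mpk, and those at 40 mpk between -0.45 (Nr1d1) and 0.20 (Arntl). On the wider list 6 of 20 genes were called at 80 mpk, all lower: Hlf (-1.16), Nfil3 (-0.83), Timeless (-0.83), Bhlhe40 (-0.70), the cell cycle kinase Wee1 (-0.60) and Cipc, a CLOCK-binding repressor (-0.39). At 40 mpk Hlf (-1.06), Timeless (-0.51) and Wee1 (-0.39) were lower. Markers of neurons were higher at 12 h in 3 of 5 at each dose, with sums of 31.5 to 32.6 at 80 mpk and 28.9 to 31.4 at 40 mpk, against 17.4 to 21.4 on vehicle. Granule neuron progenitor markers were higher in 4 of 7 at 80 mpk and 3 of 7 at 40 mpk, with sums of 85.4 to 97.9 and 82.2 to 91.8, against 56.3 to 69.8. None of these markers was at 0, and their part in the result was not tested.

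At 24 h, 5 of the 10 genes were called at 80 mpk, against 32.9% of all genes. By the probe sets used here, both activators moved, in opposite directions. Their other probe sets, given further below, did not move this way. Arntl read 0.463, 0.502, 0.563 and 0.481 at 80 mpk, against 0.342, 0.270, 0.333, 0.289 and 0.281 on vehicle, with all treated arrays higher (1.66-fold, log2 0.73 ± 0.12, 95% interval 0.49 to 0.97, adjusted p = 1.4e-06). Clock read 2.23, 2.11, 2.20 and 2.26 against 2.52, 2.39, 2.73, 2.62 and 2.61, with all treated arrays lower (log2 -0.22 ± 0.06, adjusted p = 0.00108).

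The 2 Cry genes, whose proteins are the loop's strongest repressors, differed in direction. Cry1 read 0.159, 0.220, 0.170 and 0.233 at 80 mpk, against 0.273, 0.344, 0.246, 0.286 and 0.281 on vehicle, with no overlap (log2 -0.56 ± 0.12, interval -0.80 to -0.32, adjusted p = 0.000114). Cry2 stood 0.20 higher and missed the threshold (adjusted p = 0.0880). Per2 read 0.442, 0.559, 0.508 and 0.539 against 0.363, 0.414, 0.414, 0.366 and 0.433, with no overlap and a log2 difference of 0.36 ± 0.12 (adjusted p = 0.0155). Dbp read 0.334, 0.25, 0.265 and 0.269 against 0.200, 0.177, 0.212, 0.188 and 0.199, with all treated arrays higher (1.43-fold, log2 0.51 ± 0.17, adjusted p = 0.0129). So Arntl and Dbp, which ran in opposite directions over time in vehicle tumours, were both higher than vehicle here.

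The groups did not overlap for 5 of the 10 genes, against 28.7% of all genes, and neither share sets the clock genes apart from the rest of the array. The members' median difference was 0.14, against -0.02 over all genes, and their median absolute difference 0.24, against 0.17. Nr1d1 differed by 0.08 (interval -0.33 to 0.49), Per1 by 0.25 (adjusted p = 0.159), Nr1d2 by -0.11 (adjusted p = 0.516) and Per3 by -0.05 (adjusted p = 0.787). The Per2 call was lost without the second 80 mpk replicate (adjusted p = 0.0597) and that of Dbp without the first (adjusted p = 0.0723), its highest array.

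**Figure D3:**
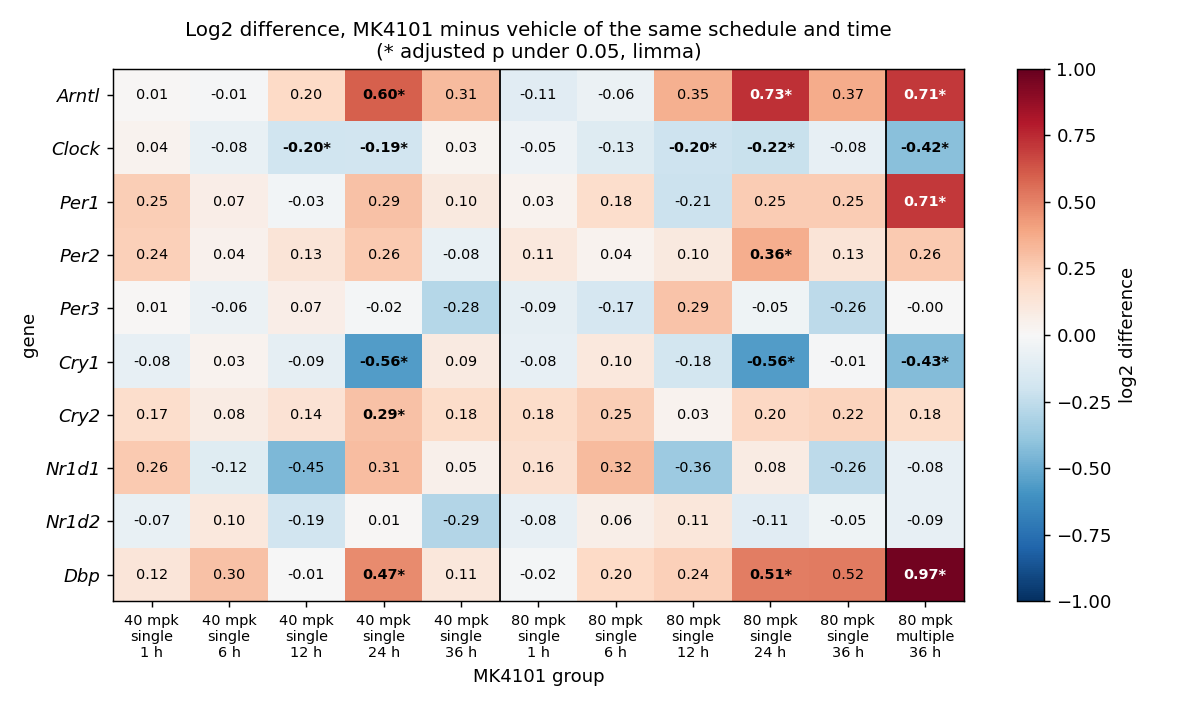
Log2 difference of MK4101 from the vehicle arrays matched on schedule and time, for each clock gene (rows) and MK4101 group (columns), with a star where the adjusted p is under 0.05. Arntl is higher by 0.73 and Cry1 lower (-0.56) at 24 h after 80 mpk, and Dbp is higher by 0.97 at 36 h of multiple doses.

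The 40 mpk arrays at 24 h also gave 5 called members, against 26.6% of all genes. Arntl read 0.549, 0.464, 0.513 and 0.331, of which the last lay within the vehicle range (1.51-fold, log2 0.60 ± 0.12, adjusted p = 9.3e-05). Cry1 read 0.173, 0.191, 0.183 and 0.228, all lower than vehicle (log2 -0.56 ± 0.12, adjusted p = 0.000171). By the probe set used here, Clock was lower by 0.19 on the log2 scale (adjusted p = 0.00673). Dbp at 0.282, 0.270, 0.302 and 0.234 was higher (1.39-fold, adjusted p = 0.0275). Cry2 read 0.870, 0.968, 0.895 and 0.847, all higher than vehicle (log2 0.29 ± 0.09, adjusted p = 0.0138), which was the call not made at 80 mpk. Per1 (0.29, adjusted p = 0.109), Per2 (0.26, adjusted p = 0.110) and Nr1d1 (0.31, adjusted p = 0.302) missed the threshold, and Per3 and Nr1d2 differed by -0.02 and 0.01. The groups did not overlap for 3 members, against 23% of all genes. The Dbp call was lost when any 1 of 5 arrays was left out, and that of Cry2 without the second 40 mpk replicate (adjusted p = 0.0639).

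Direct comparison of the doses called no member at any of the 5 times, against 0%, 0%, 0.0603%, 1.21% and 0.826% of all genes. By limma, 0, 0, 1, 0 and 1 members had an unadjusted p under 0.05 there. At 24 h the difference between 80 and 40 mpk was 0.14 for Arntl (interval -0.12 to 0.39), 0.00 for Cry1 (-0.25 to 0.25) and 0.04 for Dbp (-0.32 to 0.39). At 36 h Dbp stood higher at 80 mpk by 0.41 (interval 0.03 to 0.79, adjusted p = 0.365).

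Among other clock genes at 24 h, Rora, which encodes the receptor that activates Arntl, had the largest rise on the list of 20 at both doses (log2 1.17 at 80 mpk and 1.11 at 40 mpk). Wee1 (-1.29 at 80 mpk and -0.77 at 40 mpk), Hlf (-1.13 and -0.75), Timeless (-1.03 and -0.54) and Cipc (-0.50 and -0.30) were lower at both doses, and Nfil3 was higher at 40 mpk (0.45). At 80 mpk that made 5 of 20 called, against 32.9% of all genes, and at 40 mpk 6 of 20, against 26.6%. Between the doses, Wee1 and Timeless were lower at 80 mpk.

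Markers of host cells and of neurons moved with treatment at 24 h. All 6 fibroblast markers were higher at 80 mpk and 4 of 6 at 40 mpk, with sums of 101 to 167 at 80 mpk and 58.1 to 162 at 40 mpk, against 47.8 to 102 on vehicle. Macrophage markers were higher in 5 of 5 at 80 mpk and 4 of 5 at 40 mpk, with sums of 44.3 to 67.9 and 37.1 to 52.4, against 18.3 to 37.8 on vehicle. The 5 neuronal markers measured summed to 30.8 to 46.4 and 32.1 to 45.0, against 18.7 to 19.9, and 4 of 5 were higher at each dose. Endothelial markers were higher in 4 of 5 at 80 mpk and 2 of 5 at 40 mpk, with sums of 2.15 to 4.49 and 1.32 to 3.18, against 1.17 to 1.89. Adipocyte markers were higher in 2 of 5 at 80 mpk and in none at 40 mpk, but their sums of 4.52 to 30.8 and 3.78 to 21.1 lay above all vehicle sums, at 1.73 to 3.77. Of 7 granule neuron progenitor markers, 3 were higher and 1 lower at 80 mpk and 4 higher and 1 lower at 40 mpk, with sums of 73.3 to 98.1 and 79.7 to 93.2, against 68.2 to 72.6. None of the 7 muscle markers was called, but their sums reached 169 at 80 mpk and 227 at 40 mpk, against 31.9 on vehicle, and no marker on these lists was at 0. Leaving out muscle-rich arrays left 2 treated arrays at 80 mpk and 4 vehicle arrays. Arntl was then higher at 80 mpk by 0.65 (adjusted p = 0.000458) and Cry1 lower, at -0.61 (adjusted p = 0.000896), while Dbp (adjusted p = 0.0880) and Per2 (adjusted p = 0.101) lost their calls. At 40 mpk that step left 1 treated array and ended all 5 calls, with adjusted p = 0.910 for Arntl. With muscle and fibroblast levels as covariates, the Arntl difference was 0.53 at 80 mpk and 0.41 at 40 mpk and still called (adjusted p = 0.000313 and 0.00593), and Dbp was not called at either dose (adjusted p = 0.210 and 0.239). The part of macrophage, neuronal, progenitor, endothelial and adipocyte RNA was not tested.

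At 36 h after a single dose, no member passed the threshold at 80 mpk, against 10.9% of all genes, although 4 had an unadjusted limma p under 0.05. Arntl read 0.389, 0.377, 0.386 and 0.388 at 80 mpk, against 0.284, 0.336 and 0.275 on vehicle (log2 0.37, adjusted p = 0.0680). Dbp read 0.355, 0.244, 0.290 and 0.286, against 0.193, 0.220 and 0.196 on vehicle (log2 0.52, adjusted p = 0.0642). The other members lay between -0.26 (Per3 and Nr1d1) and 0.25 (Per1). At 40 mpk no member was called, against 0.677% of all genes, with differences between -0.29 (Nr1d2) and 0.31 (Arntl). There 3 members and 2470 genes had an unadjusted limma p under 0.05. Rora was still higher at 80 mpk (0.80), and Ciart, a repressor of the clock, was lower (-0.76).

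Multiple doses of 80 mpk, under which Gli1 was still low at 36 h, gave 5 called members at that time, against 37.4% of all genes. Dbp showed the widest gap of the 10: it read 0.426, 0.314, 0.338 and 0.420, against 0.164, 0.210, 0.174, 0.215 and 0.190 on vehicle, with no overlap (1.96-fold, log2 0.97 ± 0.17, interval 0.63 to 1.30, adjusted p = 2.3e-06). Arntl read 0.531, 0.437, 0.385 and 0.494 against 0.283, 0.281, 0.376, 0.215 and 0.268, with all treated arrays higher (1.64-fold, log2 0.71 ± 0.12, adjusted p = 1.8e-06). By the probe set used here, Clock read 2.0, 2.17, 1.88 and 2.17 against 2.51, 3.07, 2.78, 2.56 and 2.81, with all treated arrays lower (log2 -0.42 ± 0.06, interval -0.53 to -0.30, adjusted p = 8.6e-09). The other Clock probe sets, given further below, did not read lower there.

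Per1 was called in none of the other 10 treatment comparisons. It read 0.893, 0.843, 1.08 and 0.902 against 0.607, 0.542, 0.617, 0.566 and 0.509, without overlap (1.63-fold, log2 0.71 ± 0.14, adjusted p = 1.9e-05). The difference of this effect from that of a single 80 mpk dose at 36 h was 0.46 (interval 0.04 to 0.87) and missed the threshold (adjusted p = 0.208). Cry1 read 0.215, 0.251, 0.132 and 0.213 against 0.217, 0.286, 0.269, 0.282 and 0.285, with 1 vehicle array inside the treated range (log2 -0.43 ± 0.12, adjusted p = 0.00211), and its call was lost without the third treated replicate (adjusted p = 0.0941). Per2 and Cry2 arrays did not overlap between the groups but missed the threshold (log2 0.26 and 0.18, adjusted p = 0.0851 and 0.122). Nr1d1 differed by -0.08 (interval -0.49 to 0.33), Nr1d2 by -0.09 and Per3 by 0.00. The groups did not overlap for 6 of the 10 genes, against 27.4% of all genes. The median absolute difference of the members was 0.34, against 0.18 over all genes.

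On the wider list 10 of 20 genes were called at 36 h of multiple doses, beside 37.4% of all genes. Rora (1.40) and Usp2, which encodes a deubiquitinating enzyme (0.81), were higher. Wee1 (-1.43), Timeless (-1.02), Hlf (-0.43), Nampt (-0.43), Ciart (-0.40), Bhlhe41 (-0.40), Cipc (-0.32) and Arntl2 (-0.25) were lower. Fibroblast and macrophage markers were higher in 6 of 6 and 5 of 5, with sums of 134 to 204 and 47.1 to 65.3, against 43.1 to 76.5 and 12.1 to 24.5 on vehicle. Endothelial markers were higher in 4 of 5, with sums of 2.63 to 5.38, against 1.48 to 2.22. Of 3 skin markers Krt5 was higher (log2 1.22, adjusted p = 0.00153), with sums of 0.224 to 2.14, against 0.208 to 0.241. Adipocyte markers summed to 3.75 to 19.7, against 1.13 to 6.03, with none called, and of 7 progenitor markers 3 were higher and 3 lower, with sums of 72.5 to 90.4, against 61.7 to 79.4. The 5 measured neuronal markers, of which 4 were higher, summed to 51.9 to 62.5, against 19.6 to 21.0, and muscle markers to 0.960 to 164, against 0.914 to 146, with 0 of 7 called. Leaving out muscle-rich arrays left 2 treated and 3 vehicle arrays. All 5 members were then still called, among them Dbp at 0.88 (adjusted p = 0.00773) and Cry1 at -0.76 (adjusted p = 7.1e-05). With muscle and fibroblast levels as covariates, Cry1 lost its call (adjusted p = 0.309) and Nr1d1 was called lower (-0.63, adjusted p = 0.00696). The part of the other listed cell types was not tested.

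The single array of 80 mpk multiple doses at 24 h allows no test. Its Dbp value was 0.344, against 0.145 to 0.244 on the 4 vehicle arrays, and its Nr1d1 value was 0.104, against 0.245 to 0.336. Per2 at 0.787, against 0.449 to 0.574, Cry2 at 1.37, against 0.883 to 1.19, and Arntl at 0.397, against 0.277 to 0.366, also lay above all vehicle arrays. So did Cry1 at 0.285, against 0.214 to 0.280, although it was lower than vehicle in the groups called above. Clock at 2.47, against 2.68 to 3.0, and Per1 at 0.703, against 0.705 to 1.07, lay below all vehicle arrays. Per3 at 0.0589 and Nr1d2 at 2.76 lay within the vehicle ranges.

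**Figure D4:**
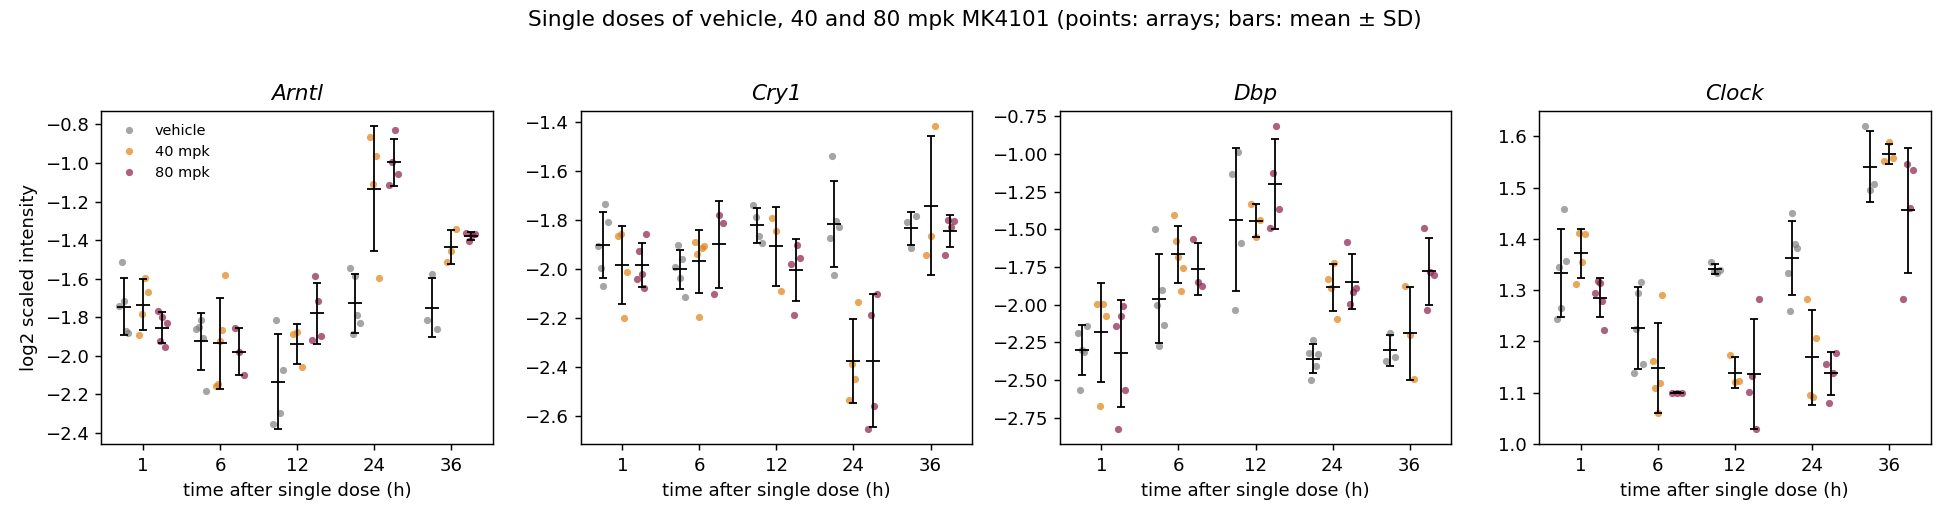
Log2 scaled intensity of Arntl, Cry1, Dbp and Clock by hours after a single dose of vehicle, 40 mpk or 80 mpk MK4101, with points for arrays and bars for the mean ± SD. At 24 h Arntl averages -1.0 at 80 mpk, against -1.73 on vehicle, and all Cry1 arrays at both doses lie below all vehicle arrays.

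Whether the course over time itself differed under treatment was tested by interaction. At 80 mpk 3 members were called, against 24.5% of all genes: Arntl (adjusted p = 0.000362), Cry1 (adjusted p = 0.0210) and Per3 (adjusted p = 0.0425). At 40 mpk 2 were called, Cry1 (adjusted p = 0.0307) and Arntl (adjusted p = 0.0375), against 12.1% of all genes. The Arntl call at 80 mpk held without each of the 42 arrays in turn. Those of Cry1 and Per3 were lost when any 1 of 3 and of 14 of them was left out (adjusted p = 0.0650 to 0.0995 for Cry1 and 0.0514 to 0.119 for Per3). Per3 was dim, between 0.0446 and 0.0793 on all 75 arrays, where the liver marker Apoa1 and the skin marker Krt14 averaged 0.0680 and 0.0688. At 40 mpk the calls of Arntl and Cry1 were lost when any 1 of 12 and of 5 of 41 arrays was left out. Neither was called at 40 mpk with muscle and fibroblast levels as covariates (adjusted p = 0.223 and 0.0826) or without muscle-rich arrays (adjusted p = 0.669 and 0.455). Neither Dbp nor Nr1d1 was called in either test, but with those covariates Nr1d1 was called at 80 mpk (adjusted p = 0.0146) and Cry1 was not (adjusted p = 0.0841). Within the treated arrays, Dbp and Nr1d1 still varied over the 5 times: at 80 mpk their group means spanned 1.13 (adjusted p = 6.1e-06) and 1.52 (adjusted p = 2.4e-06), with 9 of 10 members called, against 46.3% of all genes. Dbp at 80 mpk was highest at 12 h, with 0.356, 0.459, 0.568 and 0.388, as it was on vehicle, and Nr1d1 was highest at 6 h, with 0.487, 0.335 and 0.432. At 40 mpk 6 members were called over time, against 36.6% of all genes. By the probe sets used here, the effect of 80 mpk at 36 h differed between schedules for Clock alone, against 7.26% of all genes. The effect under multiple doses was lower than that of a single dose (log2 difference of the effects -0.33 ± 0.09, adjusted p = 0.00666). The number of members called was 0 with the mean of all probe sets or with only the groups compared, and 3 without muscle-rich arrays.

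**Figure D5:**
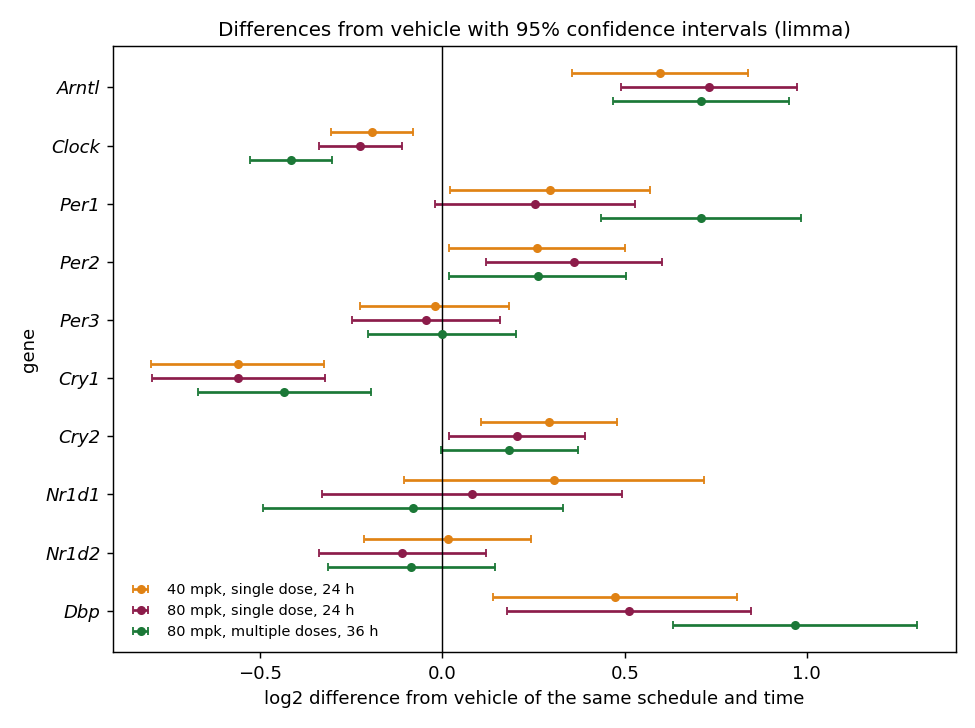
Log2 difference from matched vehicle arrays, with its 95% interval, for each clock gene at 24 h after 40 and 80 mpk and at 36 h of multiple 80 mpk doses. Arntl lies above 0 and Clock and Cry1 below 0 in all 3 comparisons, and the Nr1d1 intervals hold 0.

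Several genes had more than 1 probe set, and these did not always move together. The second Arntl probe set differed by -0.06 at 24 h after 80 mpk, -0.13 after 40 mpk and 0.10 at 36 h of multiple doses, where the probe set used here was higher. The other Clock probe sets differed by 0.15 and 0.04 at 24 h after 80 mpk and by 0.21 and 0.13 at 36 h of multiple doses, where the probe set used here was lower. When all probe sets of a gene were averaged, the Clock calls ended (adjusted p = 0.929, 0.962 and 0.842 at 24 h after 80 mpk, at 24 h after 40 mpk and at 36 h of multiple doses), while Arntl was still called in all 3 comparisons. The second Per2 probe set differed by -0.19 at 24 h after 80 mpk.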

How the data were processed

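Per the labels' protocols, total RNA of the allografts was amplified to biotin-labelled cRNA and read on single-channel arrays. Values were made with RMA per the submitters' processing notes, whose settings are not given in the sources used here. The deposited values are linear intensity, scaled so that each array averages 1 (range 0.0166 to 99.9), and log2 was taken with no pseudocount, although the design had assumed deposited log2 values. Of 43681 probe sets, 30342 had 1 gene symbol and 13339 had none. Symbols were updated through RefSeq by accession (15255 probe sets), symbol (11332) or synonym (3702), and 53 kept the given name. Each of 21552 genes was represented by its probe set of highest mean.

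limma 3.58.1 in R 4.3.3 fitted 1 mean per group over all 75 arrays (56 residual degrees of freedom). Contrasts were two-sided, with Benjamini-Hochberg adjustment over all genes. The vehicle cosine used 22 arrays. The naming rule took all 10 members in every comparison, where those not called are often given as ranges or counts, and called genes of a wider clock list (20 of 22 measured). Members, lists and tests were chosen with earlier results of these data known, so counts over them are descriptions. The fits were tested on simulated data. Array numbers limit precision. The alternatives tried were the mean of all probe sets, filters on dim genes, a second quantile normalization, another variance prior, array weights, a replicate block, covariates for host tissue, only the groups compared, and leaving out muscle-rich or single arrays. Figures were drawn with matplotlib 3.10.9 under Python 3.11.15.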

Additional observations from a re-analysis of the deposited data

Results flagged for a closer look

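Within the groups of 4 or 5 arrays, 8 of 140 pairs of a clock gene and a group held an array far from the others by Dixon's test, or 5.714%, where chance gives about 5%. Of these arrays 2 were high and 6 were low. Per2 read 0.631 in the first replicate of multiple 80 mpk doses at 36 h, against 0.566 to 0.574 in the others. Cry2 read 1.19 in the second multiple-dose vehicle replicate at 24 h (others 0.883 to 0.924), the array on which the schedule calls of Per1 and Cry2 leaned, and 0.834 in the second at 36 h (others 1.03 to 1.10). Cry1 read 0.218 in the third 40 mpk replicate at 6 h (others 0.261 to 0.270) and 0.217 in the first multiple-dose vehicle replicate at 36 h (others 0.269 to 0.286). Nr1d1 read 0.200 in the fifth 80 mpk replicate at 1 h (others 0.280 to 0.314), Dbp 0.157 in the second 40 mpk replicate at 1 h (others 0.238 to 0.251) and Arntl 0.220 in the fifth vehicle replicate at 6 h (others 0.266 to 0.284).

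The course over the 5 single-dose times differed from vehicle by limma's interaction test for Arntl (adjusted p = 0.000362 at 80 mpk and 0.0375 at 40 mpk), Cry1 (0.0210 at 80 mpk and 0.0307 at 40 mpk) and Per3 (0.0425 at 80 mpk). The effect of 80 mpk at 36 h differed between multiple and single doses for Clock (adjusted p = 0.00666) by the probe set used here. No member was called there when all probe sets of a gene were averaged.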

How the results depend on the processing

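Of 53 calls on members, 20 held under every alternative that tested the gene and 26 without every single array. Counts of called members changed as follows, and the cause was not tested unless named. The filter on dim genes at the median leaves out Cry1, Dbp, Nr1d1 and Per3. It gave 2 at 80 mpk 12 h (1 as reported), 3 at 80 mpk 24 h (5), 1 at 80 mpk 36 h (0), 3 at 40 mpk 24 h (5), 3 at multiple 80 mpk 36 h (5), 1 in the 80 mpk interaction (3), 5 across 80 mpk times (9), 3 across 40 mpk times (6) and 3 in the cosine (1). A filter at a lower level was therefore added after seeing the data and moved none of these counts by more than 1.5 times. The mean of all probe sets gave 3 at 80 mpk 24 h, 0 at 40 mpk 12 h (1), 1 in the 40 mpk interaction (2) and 0 for the difference between multiple-dose and single-dose effects (1). It reversed Clock at 40 mpk 24 h to 0.0073 and Fbxw11 between vehicle schedules at 24 h to -0.0094. A second quantile normalization gave 3 for vehicle 24 v 12 h (6), 3 at 80 mpk 24 h, 3 at 40 mpk 24 h, 1 in the 40 mpk interaction and 0 in the cosine. Array weights gave 1 for vehicle 6 v 1 h (0), 2 at 80 mpk 12 h, 3 at 80 mpk 36 h and 1 for 80 v 40 mpk at 12 h (0).

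Muscle and fibroblast covariates gave 1 for vehicle 36 v 12 h (0), 2 at 80 mpk 12 h, 1 at 80 mpk 36 h, 3 at 40 mpk 24 h and 0 in the 40 mpk interaction. Fitting only the groups compared gave 2 for vehicle 24 v 12 h, 0 at 80 mpk 12 h, 0 at 40 mpk 12 h, 1 in the 40 mpk interaction and 0 for the schedule difference in effect. Without muscle-rich arrays, 51 arrays were left, and the counts were 3 across vehicle times (6), 3 at 80 mpk 24 h, 1 at 80 mpk 36 h, 0 at 40 mpk 12 h, 0 at 40 mpk 24 h, 0 in the 40 mpk interaction, 3 for the schedule difference in effect and 0 in the cosine. The cosine gave 0 with multiple-dose vehicle arrays added and 5 without the 36 h arrays.

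Replicate numbers showed no pairing on average. Deviations of 59 same-numbered pairs had a mean correlation of -0.047 (range -0.61 to 0.54), and 210 other pairs 0.016 (-0.67 to 0.80). A mean over pairs cannot show whether single samples were paired. With the replicate block the counts were 1 for vehicle 36 v 12 h, 1 at 80 mpk 36 h, 0 at 40 mpk 12 h and 2 in the cosine.

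Leaving out each array in turn gave ranges of 4 to 7 across vehicle times, 1 to 6 for vehicle 24 v 12 h, 0 to 3 for vehicle 36 v 12 h, 0 to 3 between vehicle schedules at 24 h, 0 to 2 at 80 mpk 12 h, 4 to 6 at 80 mpk 24 h, 0 to 1 at 80 mpk 36 h, 0 to 0 at 40 mpk 12 h, 3 to 6 at 40 mpk 24 h and 4 to 6 at multiple 80 mpk 36 h. They were 2 to 3 and 0 to 3 in the 80 and 40 mpk interactions, 7 to 9 and 4 to 6 across 80 and 40 mpk times, 1 to 2 for the schedule difference in effect and 0 to 1 in the cosine. Counts over all genes moved as well, from 753 to 3072 across vehicle times (1354 as reported), 728 to 2089 for vehicle 24 v 12 h (1376), 811 to 3728 between vehicle schedules at 24 h (1188), 4948 to 8539 at 80 mpk 24 h (7095), 1777 to 7954 at 40 mpk 24 h (5728) and 859 to 3957 at 80 mpk 36 h (2341). The number of arrays limits the precision of all these values.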

Other observations

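Of 8 listed genes known to answer glucocorticoid hormones, Per1 among them, 4 were called across the 5 single-dose vehicle times, against 6.28% of all genes: Zbtb16 (adjusted p = 0.0176), Dusp1 (0.0310), Per1 (0.0435) and Sgk1 (0.0465). Zbtb16, a transcription factor, read lower at 24 h than at 12 h by a log2 difference of -0.94, with no overlap, and the phosphatase gene Dusp1 by -0.95. Without the third vehicle replicate at 12 h that Dusp1 call was lost (adjusted p = 0.470). The call of Dusp1 across the times was lost without the third replicate at 12 h, the fourth at 12 h or the fifth at 6 h (adjusted p = 0.576, 0.123 and 0.0562), that of Zbtb16 for any 1 of 2 arrays and that of Sgk1 for any 1 of 15. Of 7 measured heat and cold response genes, Hspa8 (adjusted p = 0.00428), Cirbp (0.0213) and Hsp90aa1 (0.0476) were called across vehicle times, beside the same 6.28% of all genes. The Hsp90aa1 call was lost without any 1 of 18 arrays and that of Cirbp without any 1 of 2. The cold-induced RNA-binding gene Rbm3 was higher on multiple-dose than on single-dose vehicle arrays at 24 h (log2 1.24, adjusted p = 0.00973). After 80 mpk at 24 h, 5 of the 8 glucocorticoid genes were called, 4 higher and 1 lower, against 32.9% of all genes. Among them Sgk1 (1.58) and Klf9 (1.00) were higher and Fkbp5 was lower (-0.98).

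Over the 22 single-dose vehicle arrays, the genes most like Dbp by Pearson's r were Zbtb16 (0.864), Smad6 (0.862), Pitpnc1 (0.853), Jak1 (0.829) and Aff1 (0.826), and 1.56% of all genes had r over 0.7 with Dbp. Those most like Arntl were Pde6d (0.818), Mtg2 (0.775), Rtraf (0.773), Ppme1 (0.772) and Rpl15 (0.769), and 0.204% of all genes had r over 0.7. These points share times, tumours and array scaling.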
